A study of Homo sapiens with 6 samples.

Results

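The 10 genes described here code for enzymes that activate fatty acids and place them in phospholipids, namely the long-chain acyl-CoA synthetases ACSL1, ACSL3, ACSL4 and ACSL5, and the lysophospholipid acyltransferases LPCAT1, LPCAT3, LPCAT4, MBOAT2, MBOAT7 and AGPAT3. They were chosen by name as the members of the ACSL, LPCAT, MBOAT and AGPAT families that load phospholipids with fatty acids, a step in ferroptosis. The rule uses no measured value, but it was written with earlier results of these data known. Each name matched 1 row, so that 10 of the 50868 genes in the expression table were taken. All 10 had a mean FPKM of at least 1, as had 12015 genes in all. FPKM is a count scaled to a length of the gene and to the total of the sample. Levels of different genes can be compared only as far as that length is right. RNA-Seq was performed on polyA RNA of HCT116, a human colorectal cancer cell line. Cells of the pcCon group had received the empty plasmid pcDNA3.1(+), and cells of the pcYY2 group the plasmid that overexpresses Yin Yang 2 (YY2), a zinc finger transcription factor. There were 3 samples in each group, and the cells were collected about a day after a transient transfection, so that transfected and untransfected cells were measured together. Both groups therefore carried a plasmid, and cells without one are not in the comparison.

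Long-chain acyl-CoA synthetases join a free fatty acid to coenzyme A, which makes it usable for membrane lipids, for storage or for oxidation. Lysophospholipid acyltransferases then transfer the acyl chain from acyl-CoA to a phospholipid that lacks a chain, and with phospholipases A2, which remove chains, they set which fatty acids a membrane holds. In ferroptosis, a death of cells by iron-dependent oxidation of membrane lipids, ACSL4 and LPCAT3 are known for supplying phospholipids with the polyunsaturated chains that oxidize, whereas ACSL3 and MBOAT2 are known for supplying monounsaturated chains that resist oxidation.

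YY2 had an FPKM of 2.22, 2.52 and 1.73 in the pcCon samples 1 to 3 and of 11.6, 11.1 and 11.0 in the pcYY2 samples, and was thus higher in every sample labelled with the YY2 plasmid. These values hold reads of the plasmid and of the chromosomal gene together. Between 15158360 and 29572882 reads were counted per sample, and 3 counts, taken as the floor of detection, corresponded to 0.101 to 0.198 CPM (counts scaled to a common library total), which covers counting error only. Of 8 markers of colorectal epithelium, 6 had an FPKM of at least 1 in every sample, while VIL1 and LGALS4 were at or near 0. The summed FPKM of these markers was 302 to 314 in pcCon and 393 to 429 in pcYY2. Of 10 markers of other cell types only COL1A1 reached an FPKM of 1, and their sum was between 2.15 and 3.31. Among the epithelial markers KRT19 and KRT8 were called higher in pcYY2, and their part in the results below was not tested.

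The counts were compared with edgeR's quasi-likelihood test over the 12015 genes, and a gene was called where the Benjamini-Hochberg adjusted p was 0.05 or less. LPCAT3 rose in cells overexpressing YY2, MBOAT2 fell, and the other 8 genes did not pass the test. Of all genes tested, 9.37% were called, 4.52% as higher and 4.85% as lower in pcYY2, against 2 of the 10 genes, 1 in each direction. Leaving out any 1 sample lowered the number of genes called from 1126 to between 285 and 821. The log2 fold change, always pcYY2 against pcCon, was above 0 for 8 of the 10 genes and below 0 for 2, with a median of 0.10, whereas over all genes tested 6049 were above 0, 5966 below, and the median was 0.00. In an RNA pool of this kind, a lower level in every cell and a lower share of cells with the transcript cannot be told apart. Nothing in the labels says that the 3 samples of a group came from separate cultures, so the p-values measure the spread between these samples, which may be technical.

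**Figure D1:**
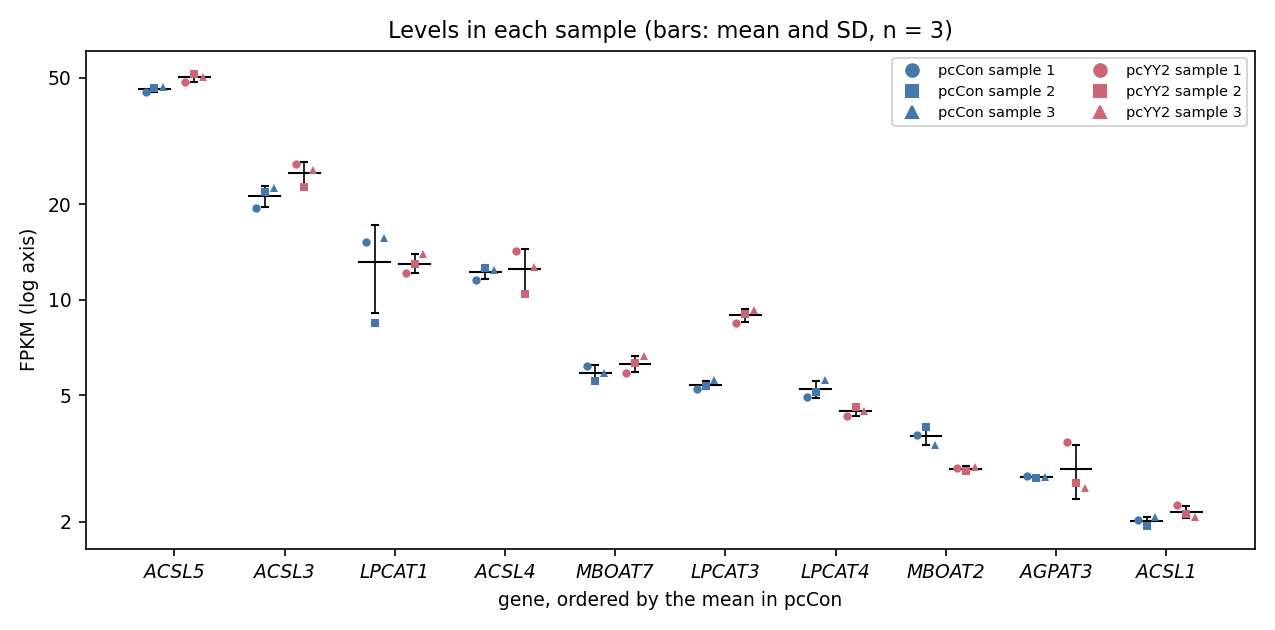
FPKM of the 10 genes in each of the 3 pcCon and 3 pcYY2 samples, on a log axis, with genes ordered by their mean in pcCon; horizontal bars are means and error bars SDs. LPCAT3 stands at 5.25 to 5.58 in pcCon and at 8.47 to 9.30 in pcYY2, MBOAT2 is lower in every pcYY2 sample, and LPCAT1 has a single low value of 8.43 in pcCon sample 2.

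The 10 genes spanned a wide range of levels, which was ordered in much the same way in both groups. In pcCon, ACSL5 was the highest with a mean FPKM of 46.0, followed by ACSL3 with 21.2. LPCAT1 and ACSL4 came next with 13.1 and 12.2, and their ranges overlapped. MBOAT7, LPCAT3 and LPCAT4 formed a further set of overlapping neighbours with 5.88, 5.40 and 5.22, and below them MBOAT2 with 3.73, AGPAT3 with 2.77 and ACSL1 with 2.01 were each set apart. In pcYY2, LPCAT3 moved from the 6th to the 5th place and no longer overlapped MBOAT7, which was then the 6th. MBOAT2 and AGPAT3, at 2.94 and 2.92, overlapped each other there. Set among the 12015 genes by mean FPKM, ACSL5 was at percentile 95.6, ACSL3 at 89.1 and LPCAT3 at 62.6, whereas MBOAT2 was at 36.4 and ACSL1 at 20.7. By FPKM, the polyunsaturated-selective synthetase ACSL4 was thus present at a lower level than ACSL5 and ACSL3 in every sample. The order of the genes and their percentiles depend on the gene lengths behind the FPKM. These lengths are not listed, but they follow from the count and the FPKM of each gene. In pcCon sample 1, ACSL3 had 3702 reads at an FPKM of 19.4, and LPCAT1 had 3216 reads at 15.2. LPCAT1 was thus scaled to a longer length than ACSL3. In the GENCODE annotation its exons are shorter, with 6475 bases against 14436 for ACSL3. The order can therefore change with the lengths taken, and it was not recomputed with exon lengths.

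LPCAT3 (ENSG00000111684, GRCh38 chr12:6976186-7018510, minus strand) places arachidonic and linoleic acid in phosphatidylcholine, phosphatidylethanolamine and phosphatidylserine. Its promoter is shown because it is the gene with the larger of the called differences, together with that of MBOAT2 (ENSG00000143797, chr2:8852690-9003813, minus strand), which places oleic acid in phosphatidylethanolamine and phosphatidylserine and moved the other way. Both sequences are the 250 bases before the RefSeq transcription start on GRCh38.p14, 5′ to 3′ on the strand of the gene. These starts lie inside the gene spans given above, so part of each window falls within the span. Matches to the CCAAT box on either strand (CCAAT or its reverse complement ATTGG) are in capitals.
LPCAT3, chr12:7018477-7018726, minus strand: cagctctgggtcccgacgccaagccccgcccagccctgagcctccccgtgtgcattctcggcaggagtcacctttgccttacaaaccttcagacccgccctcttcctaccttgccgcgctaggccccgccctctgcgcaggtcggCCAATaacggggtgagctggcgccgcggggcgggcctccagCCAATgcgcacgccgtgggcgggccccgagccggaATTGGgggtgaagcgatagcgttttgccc
MBOAT2, chr2:9003685-9003934, minus strand: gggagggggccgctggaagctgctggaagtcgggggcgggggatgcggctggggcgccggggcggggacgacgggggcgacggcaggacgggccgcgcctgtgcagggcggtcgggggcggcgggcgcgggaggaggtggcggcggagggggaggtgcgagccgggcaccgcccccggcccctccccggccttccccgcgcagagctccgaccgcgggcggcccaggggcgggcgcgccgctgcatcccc

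The LPCAT3 window held 3 CCAAT boxes, which begin 105, 64 and 29 bases before the start, the last on the opposite strand, while the MBOAT2 window held 0. Among 35116 promoter windows of the same length, 32.0% held a CCAAT box and 2.93% held at least 3, the number in the LPCAT3 window. CCAAT boxes were also found at genes that were not called, with 1 match in a window of ACSL1, 1 in that of ACSL3 and 2 in a window of AGPAT3. The letters CCAT, the core of the sequence that the YY factors are known to bind, were searched on both strands as well, and both motifs can lie in the same letters, as in CCAATGG. Neither window held CCAT, which 71.4% of all windows do, and the longer GCCAT was present in 29.4% of all windows. The G and C content was 69.2% in the LPCAT3 window and 84% in that of MBOAT2. Of the 10 genes, ACSL1, ACSL3, ACSL5, LPCAT4 and AGPAT3 had CCAT in at least 1 of their windows. A match is a description of the letters, and a missing match says nothing of YY2 at these genes.

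Of the acyl-CoA synthetases, the first enzymes of the route, none passed the test. ACSL5 (chr10:112374018-112428380), the synthetase typical of intestinal epithelium, had an FPKM of 45.0, 46.2 and 46.7 in the pcCon samples and of 48.5, 51.4 and 50.3 in the pcYY2 samples. All 3 pcYY2 samples lay above all pcCon samples, by a small margin. Its log2 fold change was 0.14 (SE 0.0414, 95% interval 0.04 to 0.23, adjusted p = 0.0812 by edgeR). ACSL3 (chr2:222860934-222944639), which sits on the endoplasmic reticulum and on lipid droplets, had 19.4, 21.8 and 22.5 in pcCon and 26.8, 22.6 and 25.6 in pcYY2. The groups did not overlap, although the highest pcCon and the lowest pcYY2 sample were close to each other. The log2 fold change of ACSL3 was 0.25 (SE 0.0809, 95% interval 0.06 to 0.44, adjusted p = 0.0964 by edgeR).

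ACSL4 (chrX:109624244-109733403), which prefers arachidonic and adrenic acid, had an FPKM of 11.5, 12.6 and 12.4 in pcCon and of 14.3, 10.4 and 12.7 in pcYY2. The pcYY2 samples spread to both sides of the pcCon samples, with a mean of 12.5 ± 1.94 (SD, n = 3) against 12.2 ± 0.556. Its log2 fold change of 0.04 had a 95% interval of -0.22 to 0.31 (adjusted p = 0.827 by edgeR), and without pcYY2 sample 1 the log2 fold change was -0.06, so no direction can be given for ACSL4. ACSL1 (chr4:184755595-184826818), which supplies acyl-CoA for oxidation and storage in muscle and fat, had the lowest level of the 10 genes, with a mean FPKM of 2.01 ± 0.0653 in pcCon and 2.15 ± 0.0976 in pcYY2 (SD, n = 3). The log2 fold change of ACSL1 was 0.11 with a 95% interval of -0.06 to 0.27 (adjusted p = 0.350 by edgeR). The groups of ACSL1 did not overlap only by the narrowest margin, with 2.06 as the highest pcCon and the lowest pcYY2 value.

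Of the acyltransferases, LPCAT3 showed the clearest difference. Its FPKM was 5.25, 5.37 and 5.58 in the pcCon samples and 8.47, 9.02 and 9.30 in the pcYY2 samples. The lowest pcYY2 sample was well above the highest pcCon sample, and the samples within each group were close together. The mean rose from 5.40 to 8.93 FPKM, a log2 fold change of 0.74 (SE 0.0596, 95% interval 0.60 to 0.88, adjusted p = 0.0021 by edgeR), or 1.67-fold, which placed LPCAT3 30th by p among the 12015 genes. Between 717 and 2261 reads were counted on LPCAT3 per sample. LPCAT3 was past the threshold in all 15 alternative analyses, with a log2 fold change between 0.39 and 0.78. These include a sum with an overlapping gene, which holds the reads of LPCAT3 itself and is no separate check.

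The lowest of these values belongs to a limit of the counting. The exons of LPCAT3 share 3096 of their 4693 bases with exons of EMG1 (ENSG00000126749), a ribosome biogenesis methyltransferase coded on the opposite strand, in the GENCODE 44 annotation. Whether the strand of the reads was used in counting is not given in the sources used here. Reads of the shared part may therefore have gone to either gene or been counted for neither. In the latter case they are also missing from the sum of both genes. In CPM, LPCAT3 had 44.5, 45.5 and 47.3 in pcCon and 71.8, 76.5 and 78.8 in pcYY2. EMG1 had 63.0, 71.2 and 74.9 CPM in pcCon and 75.0, 74.6 and 73.4 CPM in pcYY2. EMG1 thus varied within pcCon and its groups overlapped, with a log2 fold change of 0.11 (SE 0.0720, adjusted p = 0.372 by edgeR). The counts of both genes together came to 108, 117 and 122 CPM in pcCon and 147, 151 and 152 CPM in pcYY2. This sum rose as well, by a log2 fold change of 0.39 (SE 0.0606, adjusted p = 0.0151 by edgeR), where 0.34 would result if only the reads of LPCAT3 had changed. The mean FPKM of EMG1 was 9.89 in pcCon and 10.5 in pcYY2.

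MBOAT2 was the called gene in the other direction. Its FPKM was 3.75, 3.97 and 3.48 in pcCon and 2.95, 2.88 and 2.98 in pcYY2. The pcYY2 samples were nearly alike and all lay below the lowest pcCon sample. The mean fell from 3.73 ± 0.245 to 2.94 ± 0.0507 FPKM (SD, n = 3), and the log2 fold change was -0.33 (SE 0.0700, 95% interval -0.50 to -0.17, adjusted p = 0.0344 by edgeR), or 0.794-fold. MBOAT2 ranked 750th by p among the genes tested, and 501 to 944 reads were counted on it per sample. The call was near the threshold and was lost in each of the 6 analyses that left out 1 sample, with adjusted p between 0.0590 and 0.112, while the log2 fold change stayed between -0.38 and -0.29. It was also lost with lower filters on FPKM (adjusted p of 0.0561 and 0.0730).

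LPCAT4 (chr15:34358618-34367278), which acts on lysophosphatidylcholine and lysophosphatidylethanolamine with oleic acid, had an FPKM of 4.96, 5.13 and 5.58 in pcCon and of 4.31, 4.59 and 4.46 in pcYY2. Every pcYY2 sample of LPCAT4 was below every pcCon sample, but the log2 fold change of -0.21 (SE 0.0715, 95% interval -0.38 to -0.05) did not pass the test, with an adjusted p of 0.103 by edgeR. LPCAT1 (chr5:1456480-1523977), which makes the dipalmitoyl phosphatidylcholine of lung surfactant, had 15.2, 8.43 and 15.6 in pcCon and 12.1, 13.0 and 13.9 in pcYY2. The low value of pcCon sample 2 set a coefficient of variation of 30.9% in pcCon. The log2 fold change of LPCAT1 was 0.00 with a 95% interval of -0.52 to 0.53 (adjusted p = 0.994 by edgeR), and without pcCon sample 2 it was -0.23 (adjusted p = 0.147). This interval is the widest of the 10 genes, so a difference of moderate size in either direction was not detectable for LPCAT1.

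MBOAT7 (chr19:54173412-54189882), which places arachidonic acid in phosphatidylinositol, had 6.20, 5.54 and 5.89 in pcCon and 5.90, 6.32 and 6.63 in pcYY2. Its groups overlapped, and the log2 fold change was 0.11 (95% interval -0.05 to 0.27, adjusted p = 0.334 by edgeR). AGPAT3 (chr21:43865186-43986536), which acylates lysophosphatidic acid with polyunsaturated chains, had 2.79, 2.75 and 2.76 in pcCon and 3.57, 2.65 and 2.55 in pcYY2. In AGPAT3 the pcYY2 sample 1 stood above, and the other pcYY2 samples below, the pcCon samples, and the log2 fold change of 0.09 (95% interval -0.21 to 0.39, adjusted p = 0.678 by edgeR) became -0.08 without pcYY2 sample 1. No direction can therefore be given for AGPAT3.

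**Figure D2:**
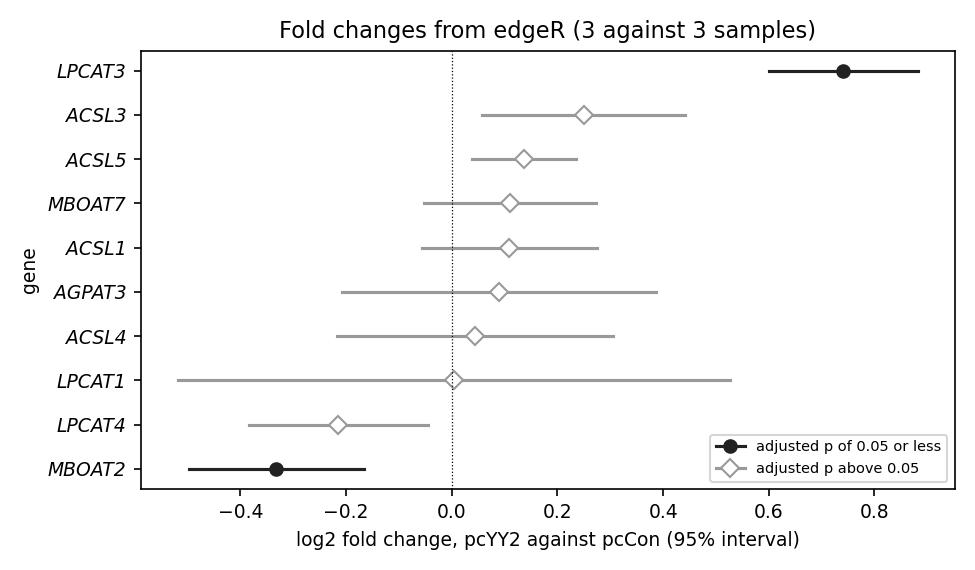
Log2 fold change of each of the 10 genes, pcYY2 against pcCon, with its 95% interval from edgeR, 3 against 3 samples; filled black points passed an adjusted p of 0.05 and open grey points did not. LPCAT3 at 0.74 and MBOAT2 at -0.33 are the called genes, and the intervals of ACSL3, ACSL5 and LPCAT4 exclude 0 before adjustment only.

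Counted by their FPKM alone, 4 of the 10 genes had pcYY2 samples that were all above the pcCon samples (LPCAT3, ACSL3, ACSL5 and ACSL1), 2 had them all below (MBOAT2 and LPCAT4), and 4 overlapped. Of all 12015 genes, 15.9% did not overlap with pcYY2 higher and 19.9% with pcYY2 lower. At an unadjusted p under 0.05 there were 5 of the 10 genes and 3467 of all genes. These are LPCAT3, MBOAT2, ACSL5, ACSL3 and LPCAT4.

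Because FPKM is scaled to gene length, the levels of a family can be added and the share of each gene followed. The 5 ACSL genes, ACSL6 included, summed to 78.1, 82.6 and 83.8 FPKM in pcCon and to 91.9, 86.6 and 90.7 in pcYY2. Every pcYY2 sum was above every pcCon sum, with ACSL5 and ACSL3 holding most of it. Within the ACSL family the shares of the 4 genes overlapped between the groups. The share of ACSL5 was 56.4% in pcCon and 55.9% in pcYY2, that of ACSL3 26.0% and 27.8%, that of ACSL4 14.9% and 13.8%, and that of ACSL1 2.47% and 2.39%. The exact two-sided permutation test gave p between 0.3 and 0.8 for these shares, where 3 against 3 samples can go no lower than 0.1.

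The 12 lysophospholipid acyltransferases together, to which LPCAT2, MBOAT1, AGPAT1, AGPAT2, AGPAT4 and AGPAT5 belong, summed to 79.1 ± 2.88 FPKM in pcCon and 82.5 ± 1.29 in pcYY2 (SD, n = 3). Within them, the share of LPCAT3 went from 6.83% ± 0.352 to 10.8% ± 0.344 (SD, n = 3), a difference of 3.99 percentage points. LPCAT4 went from 6.61% to 5.40% and MBOAT2 from 4.73% to 3.56%, so the shares of these genes differed by -1.21 and -1.17 points. The groups did not overlap for any of LPCAT3, LPCAT4 and MBOAT2, and the exact two-sided permutation test gave its smallest possible p of 0.1 for each (0.333 after Benjamini-Hochberg adjustment over the 10 genes), a size of design that cannot pass 0.05. The shares of LPCAT1 (16.4% and 15.7%), MBOAT7 (7.43% and 7.61%) and AGPAT3 (3.50% and 3.55%) overlapped between the groups. The groups did not overlap either for AGPAT5 (16.5% and 12.5%, a difference of -4.06 points), MBOAT1 (6.43% and 7.82%), LPCAT2 and AGPAT4. For each of these the exact permutation test gave the same p of 0.1. By FPKM the difference of AGPAT5 was as large as that of LPCAT3, but sizes in points depend on the gene lengths. A shift of the share without overlap was not particular to LPCAT3. AGPAT1 held 17.3% in pcCon and 19.0% in pcYY2, and its groups overlapped.

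**Figure D3:**
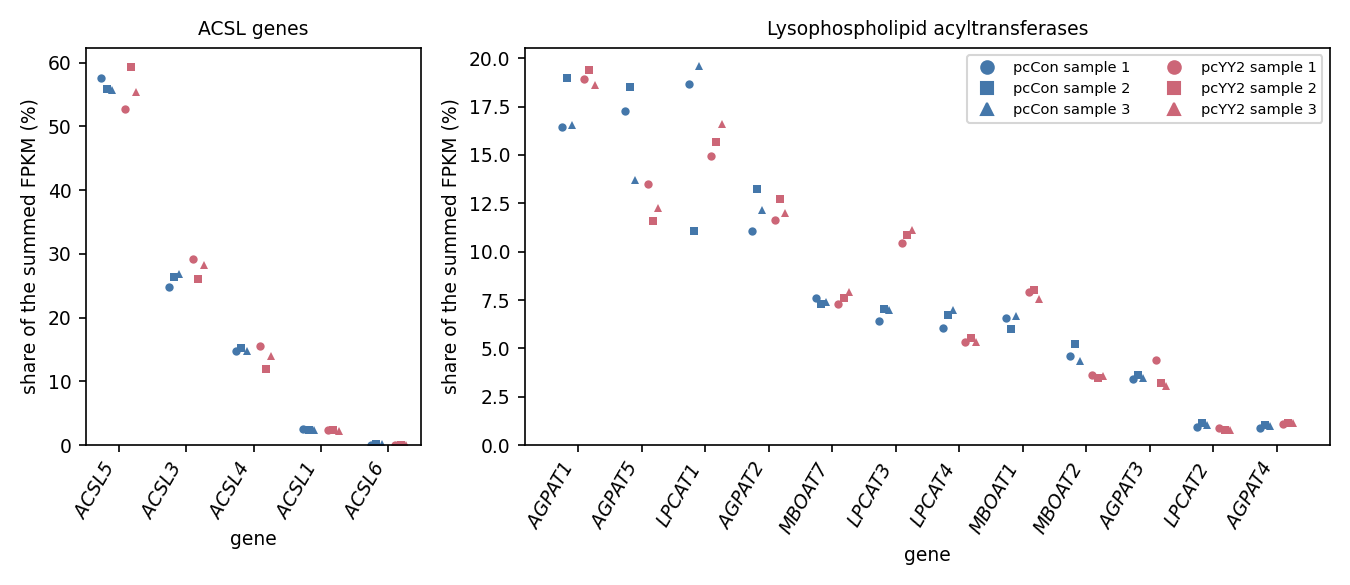
Share of each gene in the summed FPKM of its family in percent, for the 5 ACSL genes and the 12 lysophospholipid acyltransferases, with 1 point for each of the 3 pcCon and 3 pcYY2 samples. The shares of ACSL1, ACSL3, ACSL4 and ACSL5 overlap between the groups and that of ACSL6 is near 0, whereas the share of LPCAT3 goes from a mean of 6.83% to 10.8% and those of LPCAT4 and MBOAT2 are lower in all 3 pcYY2 samples.

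The other genes of the pathway were taken from 8 lists with 127 genes, written by function. Of these, 81 were tested and 10 were called, 5 higher and 5 lower, which is 12.3% of those tested beside 9.37% of all genes, and the median log2 fold change was -0.04. Without pcCon samples 1, 2 and 3 in turn, 5, 4 and 6 of the list genes were called, and without pcYY2 samples 1, 2 and 3 the numbers were 8, 6 and 5. All values of the following genes are FPKM as means with SD (n = 3) and log2 fold changes with adjusted p by edgeR.

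Among 22 other acyl-CoA synthetases, 8 were tested and 1 was called. This was SLC27A6, a fatty acid transport protein with synthetase activity, which fell from 3.45 ± 0.271 to 2.24 ± 0.411 (log2 fold change -0.62, adjusted p = 0.0482). ACSF3 (0.39, adjusted p = 0.0656) and SLC27A4 (0.28, adjusted p = 0.0789) had positive log2 fold changes without passing. Among 14 other glycerophospholipid acyltransferases, 12 were tested and GNPAT, which starts ether lipid synthesis in peroxisomes, was the called gene, lower by a log2 fold change of -0.41 (18.1 ± 1.10 to 13.5 ± 0.727, adjusted p = 0.0191). LPGAT1 (-0.30, adjusted p = 0.0518) and AGPAT1 (0.21, adjusted p = 0.0642) came next by p. For MBOAT1, a close relative of MBOAT2, the log2 fold change was 0.36 (adjusted p = 0.0769), a sign opposite to that of MBOAT2. Its difference did not pass, and MBOAT1 is named because it is the paralog of a called gene.

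The enzymes that remove acyl chains had 2 called genes of 12 tested, out of 23 phospholipases A2 and lysophospholipases, both lower in pcYY2. PLA2G7, the platelet-activating factor acetylhydrolase, which also cleaves oxidized phospholipids, fell from 2.61 ± 0.172 to 1.15 ± 0.232 (log2 fold change -1.15, SE 0.179, adjusted p = 0.0154). PLA2G12A, a secreted phospholipase A2, fell from 7.39 ± 0.300 to 5.15 ± 0.0876 (log2 fold change -0.51, adjusted p = 0.0069). PLA2G16 had -0.33 (adjusted p = 0.0908) and was not called. The list of 18 acyl-CoA thioesterases and binding proteins, with 10 tested, had ACBD5 as the called gene, a peroxisomal acyl-CoA binding protein that was higher by a log2 fold change of 0.31 (adjusted p = 0.0286). DBI, an acyl-CoA binding protein of the cytosol (0.25, adjusted p = 0.0651) and ACBD7 (-0.73, adjusted p = 0.0686) followed by p.

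Synthesis of phosphatidylcholine, phosphatidylethanolamine and phosphatidylserine and of their precursors, with 21 of 22 genes tested, was the list with the most tested genes. It also had the most calls, 3 higher and 1 lower. This is 19.0% of those tested, beside 16.7% in the list of phospholipases A2 and lysophospholipases and 9.37% of all genes. LPIN1, a phosphatidic acid phosphatase that makes diacylglycerol, rose from 1.30 ± 0.0422 to 2.20 ± 0.126 (log2 fold change 0.77, SE 0.0699, adjusted p = 0.0031). PCYT1A, the rate-limiting enzyme of phosphatidylcholine synthesis, rose from 6.83 ± 0.318 to 9.53 ± 0.212 (log2 fold change 0.49, SE 0.0550, adjusted p = 0.0059). CHKB, a choline kinase, was higher by 0.42 (adjusted p = 0.0273), but 2078 of its 2866 exon bases are shared with the readthrough transcript CHKB-CPT1B, so its count is uncertain. Other called list genes had shorter overlaps, given here in exon bases. On the opposite strand, these included SREBF1 with RAI1 (556 of 8234), ACBD5 with MASTL (327 of 11794) and PLA2G7 with TDRD6 (119 of 2059). On the same strand, PLA2G12A shared 823 of 5221 with a gene that is not in the expression table. PCYT1A shared 321 of 7967 with RP11-447L10.1, also on the same strand. CDS1, which turns phosphatidic acid into CDP-diacylglycerol, fell (log2 fold change -0.39, adjusted p = 0.0204).

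No call was made by edgeR among 7 tested genes of ether phospholipid synthesis, of which 2 had an unadjusted p under 0.05, nor among 5 tested genes of phospholipid oxidation, of which 1 had. In the ether list, FAR1 (-0.17, adjusted p = 0.117), DHRS7B (0.25, adjusted p = 0.124) and TMEM189 (-0.29, adjusted p = 0.467) had the smallest p. In the oxidation list, these were CYB5R1 (0.24, adjusted p = 0.160), GPX4 (-0.13, adjusted p = 0.198), the peroxidase that reduces oxidized phospholipids, and PEBP1 (-0.09, adjusted p = 0.227). The liver X receptors (LXR) are known to switch on LPCAT3 in liver and intestine, so the receptors and their other target genes were listed. Their part in the level of LPCAT3 in these cells was not tested. Of 9 genes 6 were tested, and SREBF1, the lipogenic transcription factor SREBP1, was the called gene, with 9.84, 10.5 and 9.60 FPKM in pcCon and 13.9, 15.2 and 14.6 in pcYY2 (log2 fold change 0.56, SE 0.0579, adjusted p = 0.0053). All pcYY2 samples of SREBF1 were above all pcCon samples. The receptor NR1H2 (0.36, adjusted p = 0.0594) and the target MYLIP (0.25, adjusted p = 0.218) did not pass, nor did the receptor partners RXRA (-0.04, adjusted p = 0.729) and RXRB (0.13, adjusted p = 0.539) and the target SMPDL3A (-0.10, adjusted p = 0.814), and the list had a median of 0.19. The receptor NR1H3 and the cholesterol transporters ABCA1 and ABCG1, well-known LXR targets, had a mean FPKM under 1 and were not tested, with ABCA1 at 0.306 in pcCon and 0.225 in pcYY2 and ABCG1 at 0.364 and 0.353.

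**Figure D4:**
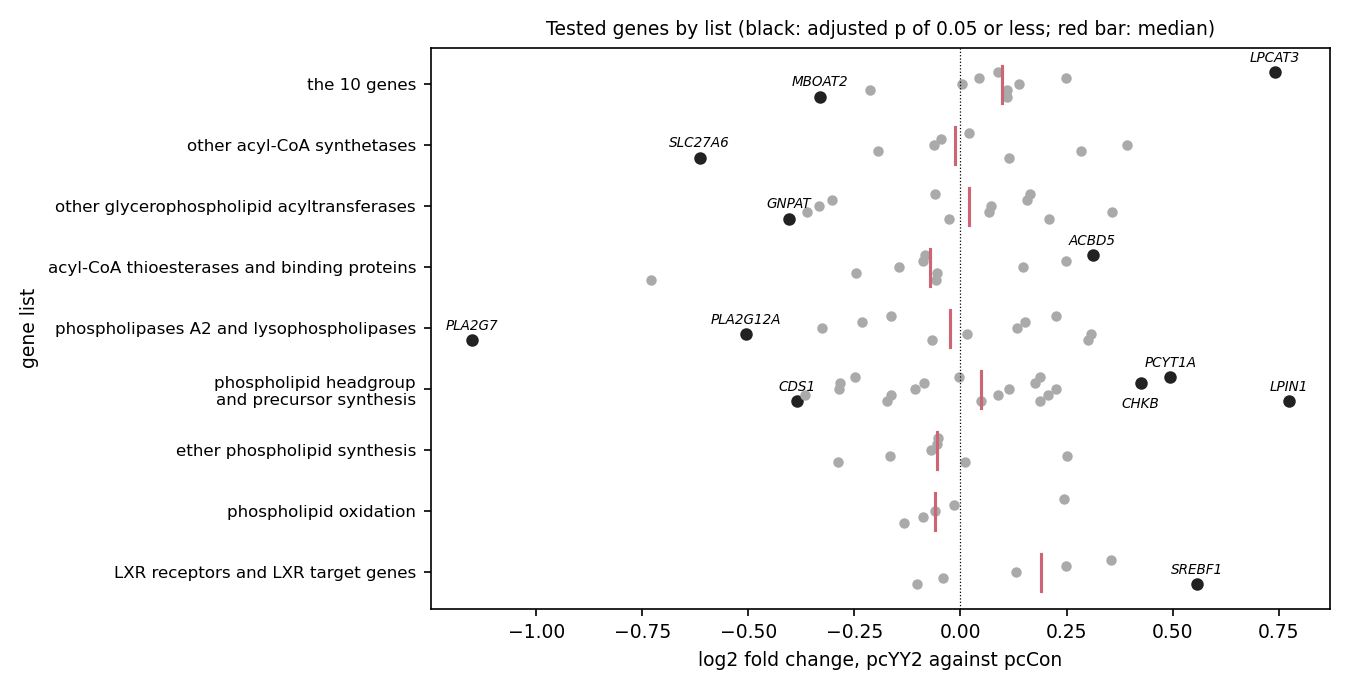
Log2 fold change, pcYY2 against pcCon, of each tested gene in the 10 genes and in 8 lists of related pathways, where large black points with names passed an adjusted p of 0.05, small grey points did not, and red bars are medians. The called genes lie on both sides of 0, with PLA2G7 at -1.15 as the lowest and LPIN1 at 0.77 and LPCAT3 at 0.74 as the highest.

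The genes whose pattern over the 6 samples was most like that of each called gene were found by the root mean square distance of their centred log2 CPM among the 12015 genes. For LPCAT3 these were MYL9, a myosin light chain (distance 0.0350, log2 fold change 0.74), TROAP, a protein of the mitotic spindle (0.0577, 0.69), and CRK, an adaptor of focal adhesions (0.0578, 0.72). For MBOAT2 they were SOWAHC (distance 0.0222, log2 fold change -0.32), CDC14B, a phosphatase (0.0279, -0.35), and RPL26P19, a ribosomal protein pseudogene whose reads may belong to its parent gene (0.0301, -0.31). The distances are a description over 6 samples.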

How the data were processed

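RNA-Seq was analysed in 3 pcCon and 3 pcYY2 samples, grouped and numbered by their titles. The methods state that reads were cleaned, aligned with Tophat to GRCh38, and analysed with Cufflinks and Cuffdiff. The submitters' processing notes also name Bowtie2 and HTSeq. The table that the authors deposited holds raw counts per gene as whole numbers, and the deposited FPKM equals the count divided by a gene length and the total count of the sample, within 0.000858% over 10859 genes. No output of Cuffdiff was used, and 0 columns were left without a sample. Strand use in counting is not given in the sources used here, so overlapping genes can exchange reads or lose the shared ones.

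Counts were scaled by TMM and tested with edgeR 4.0.16 (R 4.3.3, glmQLFit and glmQLFTest) over genes whose FPKM averaged 1 or more, with Benjamini-Hochberg adjustment over all 12015 genes. Each SE was obtained from the F statistic, as the size of the log2 fold change over the root of F. Shares of FPKM were compared with exact two-sided permutation tests (scipy 1.17.1). The alternatives were other filters, scalings and thresholds, DESeq2 1.42.0, limma 3.58.1, the replicate number as a block, leaving out each sample, and counts summed with overlapping genes. The tests were also run on simulated counts. Overlaps were taken from GENCODE 44, in which 97.6% of the gene identifiers were found, and promoters from RefSeq. Tables and plots were made with Python 3.11.15, pandas 2.3.3 and matplotlib 3.10.9.

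The 10 genes and the lists were chosen with earlier results of these data known. The text names all 10 genes, every called gene of each pathway list and at least the 3 with the smallest p, and the 3 genes nearest in pattern to each called gene.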

Additional observations from a re-analysis of the deposited data

How the results depend on the processing

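LPCAT3 kept its direction and its side of the threshold in all 15 alternatives (adjusted p 4.998e-14 with DESeq2 to 0.0306 with the replicate block), whereas MBOAT2 kept its direction in all 14 and its call in 5. The 10 genes held 3 higher calls at an adjusted p of 0.1. They held 0 lower calls with a mean FPKM of at least 0.1, with no filter, with the replicate block, at an adjusted p of 0.01, and when any 1 sample was left out. Genes called over all tested numbered 191 at an adjusted p of 0.01 and 2295 at 0.1. Without pcCon samples 1, 2 and 3 they numbered 324, 285 and 311, and without pcYY2 samples 1, 2 and 3 they numbered 821, 545 and 363. The list genes called numbered 4 to 8 without 1 sample. No pairing by replicate number was visible: deviations of same-numbered samples correlated at -0.0262, -0.0413 and -0.0259, and those of other pairs at -0.0344 to 0.0598. Whether same-numbered samples shared a culture or a day is not stated, and these correlations cannot settle it. With the replicate block 101 genes, all 101 of them among the 1126, and 2 list genes were called. The log2 fold change of LPCAT1 turned to -0.0142 with upper quartile scaling and -0.0103 with library totals. Leaving out 1 sample gave -0.2335 to 0.1502 for LPCAT1, -0.0648 to 0.1554 for ACSL4 and -0.0758 to 0.1733 for AGPAT3. The share differences then ranged in points from -2.35 to 0.9646 for ACSL5, -3.38 to 0.8717 for LPCAT1 and -0.3767 to 0.2952 for AGPAT3. Every sum with overlapping genes kept the side of the threshold, but each holds the reads of the gene itself. The cause of these changes was not tested. In the lists 46 genes were not tested, since their mean FPKM was under 1, and 15 of these had at most 3 counts in every sample, where no difference is detectable at this depth.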
